A study of Brassica napus with 12 samples.

Results

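H3K27me3 was compared between flower buds and siliques (seed pods) of HZ62, a hybrid of the allotetraploid oilseed crop *Brassica napus*. The comparison used 4 of the 12 peak lists of the series: 2 from ChIP-seq (sequencing of the DNA that an antibody against the mark pulls down with chromatin) of buds under 2 mm and 2 from siliques of 3 to 5 cm. Joining the peaks of these 4 lists that shared at least 1 bp gave 28139 regions, and all of them are accounted for below. A library held a region where it had a peak inside it. Both tissues came from plants of the genotype labelled WT, grown with 16 h of light and 8 h of dark at 22 and 18 °C. Each library used about 1 g of tissue, fixed in 1% formaldehyde and sonicated to fragments of 200 to 600 bp. The tissue field reads "flower bug" for the bud samples, and the design text names flower bud, which is used here. Libraries are numbered 1 and 2 within a tissue in the order of their records. Nothing in the labels says that they came from separate plants, so p-values reflect the spread among these libraries alone, and that spread may be technical.

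H3K27me3 is the histone mark of Polycomb silencing. In plants, Polycomb repressive complex 2, whose catalytic subunits are homologues of Enhancer of zeste, trimethylates lysine 27 of histone H3 over developmental genes that are off in a given organ, and demethylases of the JMJ family remove the mark where such genes come on. In Arabidopsis the mark covers whole gene bodies, including those of floral homeotic and seed maturation genes, whereas H3K4me3, deposited by Trithorax-type enzymes, sits at the starts of transcribed genes. Buds and siliques are whole organs, made of many cell types. A lower level of the mark can thus come from fewer cells that carry it or from less of it in each cell, and these cannot be told apart here. Regions are named by their 1-based positions on the numbered sequences of the deposited lists, because no annotation of that build was at hand for this work. For the same reason neither tissue was checked against marker genes.

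The second silique library stood apart in depth. After the authors' filtering the libraries held 11513204 and 10929797 fragments in bud and 7441109 and 2654588 in silique. Their lists held 25956 and 25589 peaks in bud and 23978 and 13579 in silique, all called against the same merged control of 12042843 fragments. Pileup is the number of fragments that cover a peak's summit, and the highest in a region stood for the region. Over the 10854 regions found in all 4 libraries its median was 90 and 102 in bud and 59 and 20 in silique. Each value was divided by that median of its own library, and the result is called the scaled pileup. Per 1000000 fragments the medians lay closer, at 7.82 and 9.33 in bud and 7.93 and 7.53 in silique. The weakest peak of a list had a scaled pileup of 0.178 and 0.157 in bud and 0.220 and 0.45 in silique. Silique library 2 could therefore not show a level below 0.45, where the other libraries listed many regions.

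Most strong H3K27me3 was common to both organs, and most regions that differed in presence were weak, narrow regions of bud. All 4 libraries held 10854 regions (38.6%), with a median width of 2147.5 bp. Both bud libraries and silique library 1, without silique library 2, held 8032 regions (28.5%) with a median width of 1055 bp. In bud and not in silique, that is in both bud libraries and neither silique library, were 3623 regions (12.9% of all merged regions). In silique and not in bud were 78 regions (0.277%). With a single library on a side, 1115 regions were in bud library 1 alone, 2016 in bud library 2 alone, 1351 in silique library 1 alone and 13 in silique library 2 alone. The other combinations held between 1 and 650 regions each, shown in the plot of combinations.

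**Figure D1:**
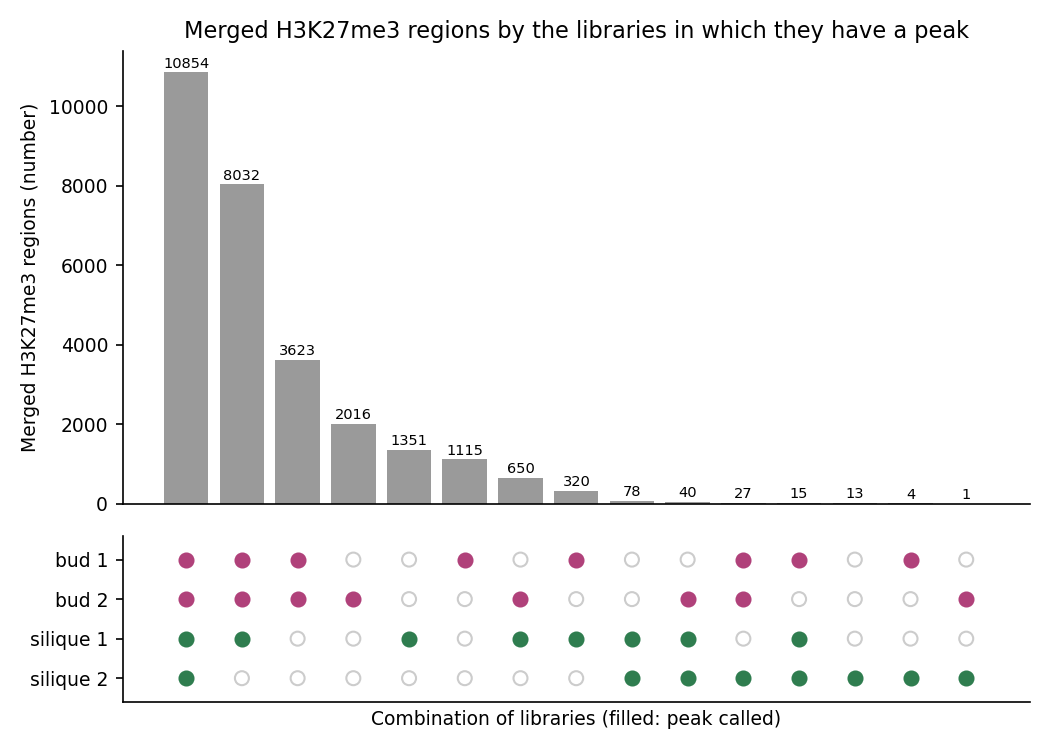
Number of merged H3K27me3 regions (vertical axis) for each combination of the 4 libraries, with filled circles below marking the libraries in which the region has a peak. The highest bars are the 10854 regions of all 4 libraries, the 8032 that miss silique library 2 and the 3623 of both bud libraries without a silique peak, against 78 of both silique libraries without a bud peak.

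The 3623 regions in bud and not in silique were weak. Their median scaled pileup was 0.344 and 0.324 in the bud libraries, their median width 683 bp, and 2 of them were 5 kb or wider. The 78 in silique and not in bud had a median width of 794 bp. Their median scaled pileup was 0.585 and 0.75 in the silique libraries. Each of them needed a peak in silique library 2, whose list starts at 0.45, against 0.178 and 0.157 in bud. The part of this in the levels and counts of both sets was not tested. The medians of both sets lay below the median level of the shared regions. Of the regions with a scaled pileup of 0.5 or more in both bud libraries, 269 of 12454 (2.16%) had no peak in either silique library. From 0.7 upward this held for 56 of 8524 (0.657%), and from 1 upward for 14 of 5166 (0.271%). In the other direction, 49 of 10386 regions with 0.5 or more in both silique libraries had no bud peak, as did 20 of 8158 from 0.7 upward and 8 of 4822 from 1 upward.

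How often a bud region was found in silique varied with its strength and with the silique library. Of the 22536 regions of both bud libraries, 83.8% were in silique library 1 and 48.3% in silique library 2. Where the lower of the bud values was at least 2, 100% (exact 95% interval 99.6 to 100) were found in silique library 1 and 99.6% (99.0 to 99.9) in silique library 2, of 987 regions. Between 0.5 and 0.7 the shares were 94.5% (93.7 to 95.1) and 47.8% (46.2 to 49.3) of 3930 regions. Between 0.35 and 0.5 they were 81.0% (79.8 to 82.1) and 19.6% (18.5 to 20.8) of 4634. Intervals are exact binomial ones and cover counting error only. The sister library gave the same picture from within silique, since 40.6% of the regions of silique library 1 between 0.5 and 0.7 were found in silique library 2, while 95.01% and 96.1% were found in the bud libraries. At this level silique library 2 shared fewer regions with its own sister than either bud library did. The bud share of 47.8% used the lower of the bud values. Binned by a single bud library from 0.5 to 0.7, silique library 2 held 39.7% (bud library 1) and 42.5% (bud library 2).

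**Figure D2:**
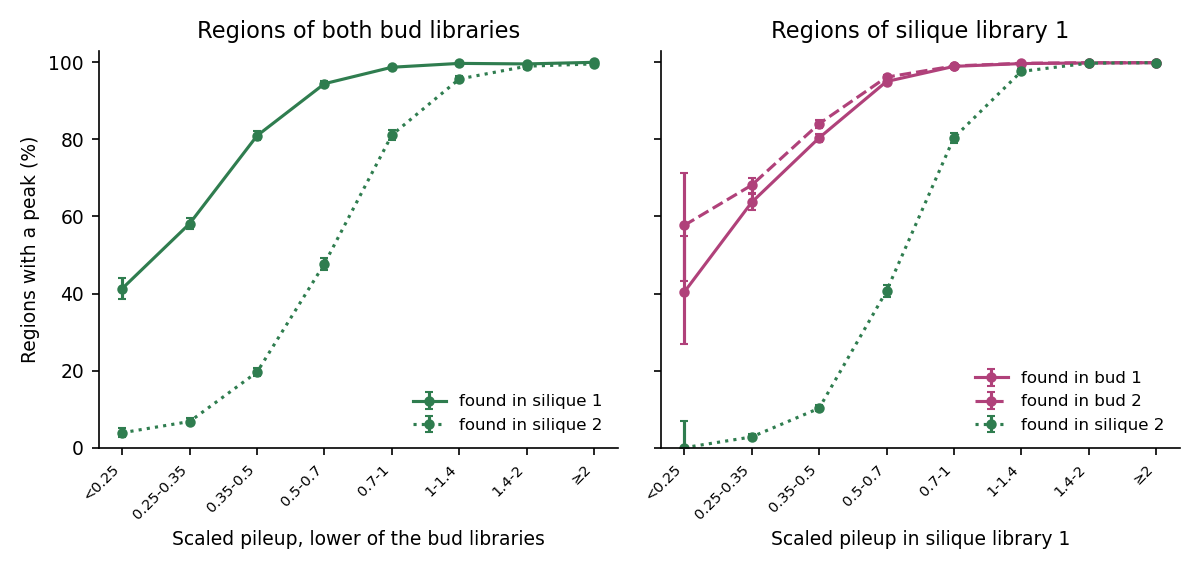
Share of H3K27me3 regions with a peak in another library (percent, with exact 95% binomial intervals) by the scaled pileup of the region, for regions of both bud libraries (left) and of silique library 1 (right). Between 0.5 and 0.7 silique library 2 found 47.8% of bud regions and 40.6% of the regions of silique library 1. The other curves lie at 94.5% or above at that level. Bud regions are binned by the lower of the bud values, so the shares of the panels are not like for like.

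What silique library 2 did list was almost all shared. Of its 11032 regions, 99.6% were in silique library 1 and 98.6% in both bud libraries. Of the 21340 regions of silique library 1, 88.5% were in both bud libraries and 51.5% in silique library 2. Silique library 1 had 1429 regions with no bud peak, at a median scaled pileup of 0.356. Silique library 2 held 78 of them, and 49 of these reached 0.5 in silique library 1.

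The count in bud and not in silique changed with the rule of detection. It was 1227 with each list cut to its 13579 strongest peaks, where silique and not bud had 440. It was 27 where both bud values also reached the level above which a silique library finds at least 95% of its sister's regions. That level was 0.814 for silique library 2. For silique library 1 it was 0.45, the lowest level that its sister lists, and so not a measured limit. In the other direction the same rule for bud, at 0.284 and 0.256, left 78. Silique library 2 lists nothing below 0.45, so the bud levels had little room to remove regions. The counts of 27 and 78 are thus not like for like. Judged on 1 library for the tissue concerned, the count in bud and not in silique was 5639 without bud library 1, 4738 without bud library 2, 11655 without silique library 1 and 3650 without silique library 2. For silique and not bud those counts were 93, 118, 91 and 1429. The part of depth in the regions that remained was not tested.

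Most of the 3623 regions in bud and not in silique (86.1%) had no H3K4me3 peak in either tissue, and 419 (11.6%) had H3K4me3 in both silique libraries, against 6.78% of all merged regions. Both bud libraries had H3K4me3 at 285 (7.87%), against 6.05% of all merged regions. It was in silique only at 131 (3.62%), against 1.99%. Of the 5 strongest, 4 had H3K4me3 in silique. On sequence 15 from 2670483 to 2673055, bud libraries had pileups of 172 and 205 (scaled 1.91 and 2.01) and no silique peak was listed. H3K4me3 pileup there was 35 and 36 in bud, against 322 and 236 in silique. On sequence 4 from 11354992 to 11357587 H3K27me3 pileup was 170 and 229 in bud, beside H3K4me3 of 48 and 49 in bud and 223 and 133 in silique. The widest of these named regions, 8619 bp on sequence 1 from 5625391 to 5634009, had 166 and 197 in bud, beside H3K4me3 of 60 and 62 in bud and 190 and 153 in silique. All 3 H3K4me3 differences passed the test of that mark described below. Their log2 differences were -2.76, -1.63 and -1.29 (limma adjusted p = 2.01e-18, 2.67e-11 and 1.76e-09). Calls of that test needed both silique H3K4me3 libraries, as given below. The other two named regions were neighbours on sequence 17, from 44412016 to 44413243 with 134 and 159 in bud and from 44414095 to 44416806 with 143 and 161. Silique H3K4me3, at 56 and 50, was listed at the first of these neighbours and at neither in bud. Seedling libraries had H3K27me3 peaks at 4 of the 5, all but the region of sequence 4.

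Of the 78 regions in silique and not in bud, 47 (60.3%) had no H3K4me3 peak and 30 (38.5%) had H3K4me3 in both bud libraries, against 6.05% of all merged regions. Both silique libraries had H3K4me3 at 16 (20.5%), against 6.78% of all merged regions. It was in bud only at 12 (15.4%), against 1.34%. The 5 strongest all had H3K4me3 in bud. On sequence 2 from 28293677 to 28294311, a short region of 635 bp, H3K27me3 pileup was 167 and 55 in silique (scaled 2.83 and 2.75) with no bud peak. H3K4me3 there was listed in bud alone, at 176 and 181. On sequence 13 from 26672010 to 26672929 silique had 92 and 33, beside bud H3K4me3 of 71 and 323, a pair that differs widely between libraries. On sequence 9 from 26262140 to 26264627 silique had 81 and 29, beside bud H3K4me3 of 83 and 79. The region on sequence 15 from 22797099 to 22798715 had 72 and 24 in silique and H3K4me3 of 66 and 81 in bud. On sequence 16 from 47466520 to 47468055 silique had 71 and 24, and H3K4me3 was 243 and 232 in bud, against 74 and 45 in silique (log2 difference 2.24, limma adjusted p = 2.88e-16).

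Levels were tested in the 10854 regions found in all 4 libraries, as log2 of the scaled pileup, bud minus silique. The limma test across all of these regions, with Benjamini-Hochberg adjustment and an adjusted p under 0.05, called 373 regions higher in bud (3.44% of those tested) and 538 higher in silique (4.96%), 911 in all (8.39%). Before adjustment 2800 (25.8%) had p under 0.05. Both bud values lay above both silique values in 2775 regions (25.6%), and both silique values above both bud values in 3302 (30.4%), and all 911 called regions were among these. An exact permutation test of a single region, 2 against 2, cannot go below p = 0.333. Most regions differed little: the median difference was -0.03, the interquartile range ran from -0.25 to 0.18, and the median standard error was 0.167. The highest difference was 1.76 and the lowest -2.86.

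Calls depended on which libraries were in. Without bud library 1 they were 0.835% of 10894 regions in bud and 1.83% in silique, and without bud library 2 they numbered 62 and 162. Without silique library 1 they numbered 1473 and 1892, and without silique library 2 they numbered 1439 and 1438 of 18886 regions tested, so the excess of silique calls was not seen there. A tissue left with 1 library is assumed to vary like the other. Every one of the 373 and the 538 kept its sign in these 4 fits. In each called region both values of 1 tissue lay above both of the other. Leaving out 1 library thus had little room to change a sign, and nothing is read from the kept signs. Scaled by fragments instead of the median, 242 were higher in bud and 213 in silique, beside a shift of the median difference to 0.12. Libraries agreed more within bud than within silique: the SD of the log2 difference in scaled pileup was 0.203 between the bud libraries, 0.327 between the silique libraries and 0.370 to 0.460 between tissues (Pearson r across these regions, which are not independent replicates, 0.967, 0.883 and 0.816 to 0.872).

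**Figure D3:**
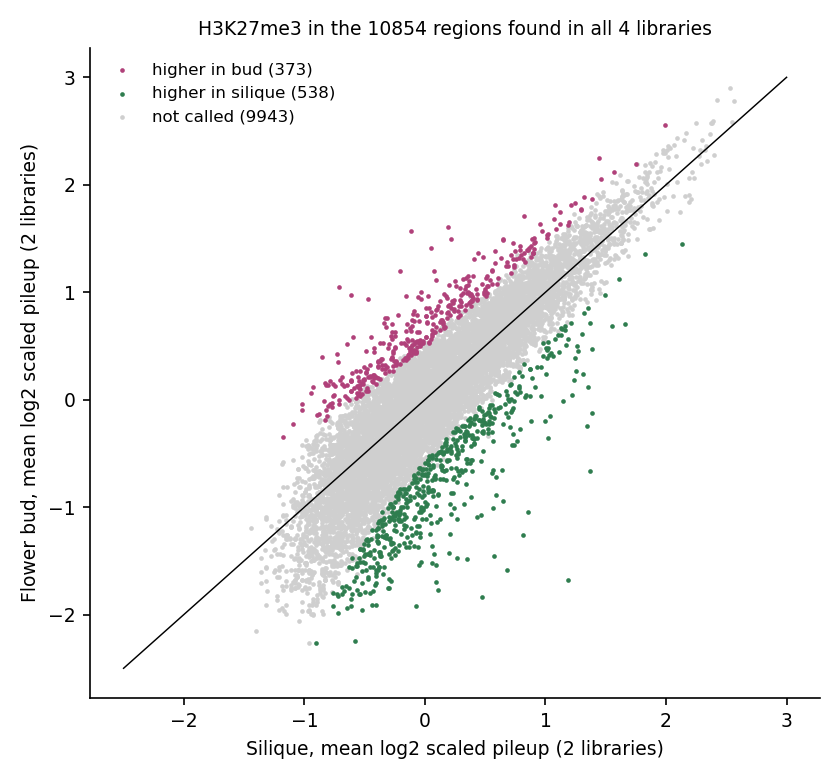
Mean log2 scaled pileup of the 2 bud libraries (vertical axis) against that of the 2 silique libraries (horizontal axis) for the 10854 regions found in all 4 libraries, with the line of equal level. The 373 regions higher in bud lie above the line mostly at middle and high levels, and the 538 higher in silique lie below it, many at low levels.

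Regions higher in bud were wide and strong, and regions higher in silique were narrower and weaker in bud. The 373 had a median width of 2927 bp, a median scaled pileup of 1.59 and 1.65 in bud and 1.02 and 0.95 in silique, and a median log2 difference of 0.65. The 538 had a median width of 1419.5 bp, a median scaled pileup of 0.6 and 0.578 in bud and 1.04 and 1.1 in silique, and a median difference of -0.82. Differences of at least 1 on the log2 scale numbered 25 in bud and 155 in silique. A tested region needed a peak in silique library 2, whose list starts at a scaled pileup of 0.45, against 0.178 and 0.157 in bud. Regions weak in silique could thus drop out of the test where regions weak in bud stayed in. The part of this in these counts and levels was not tested. In the 947 regions of 5 kb or wider, 59 (6.23%) were higher in bud and 15 (1.58%) in silique. In the 1171 regions under 1 kb, 13 (1.11%) were higher in bud and 159 (13.6%) in silique. These narrow regions were weak, with median scaled pileups of 0.656 and 0.618 in bud and 0.746 and 0.8 in silique. After quantile normalization the contrast by width kept its direction and shrank. At 5 kb or wider 2.43% were then higher in bud and 1.37% in silique, and under 1 kb 0.256% and 2.73%. All tested regions then had 1.07% and 1.54%.

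The level of a region went with the direction of its call. From the weakest to the strongest quartile of the mean level, 9, 87, 132 and 145 regions were higher in bud and 234, 142, 108 and 54 in silique, with median differences of -0.26, -0.04, 0.03 and 0.10. The weakest quartile is where the floor of silique library 2 at 0.45 lies nearest to the measured levels, with medians of 0.567 and 0.544 in bud and 0.610 and 0.7 in silique. The 5427 regions above the median of the mean level over all 4 libraries were also rescaled to their own medians and refitted. That fit called 284 higher in bud and 223 in silique. In the fit of all tested regions, 277 and 162 of them were called. The part of the floor in the silique calls of weak regions was not tested further.

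**Figure D4:**
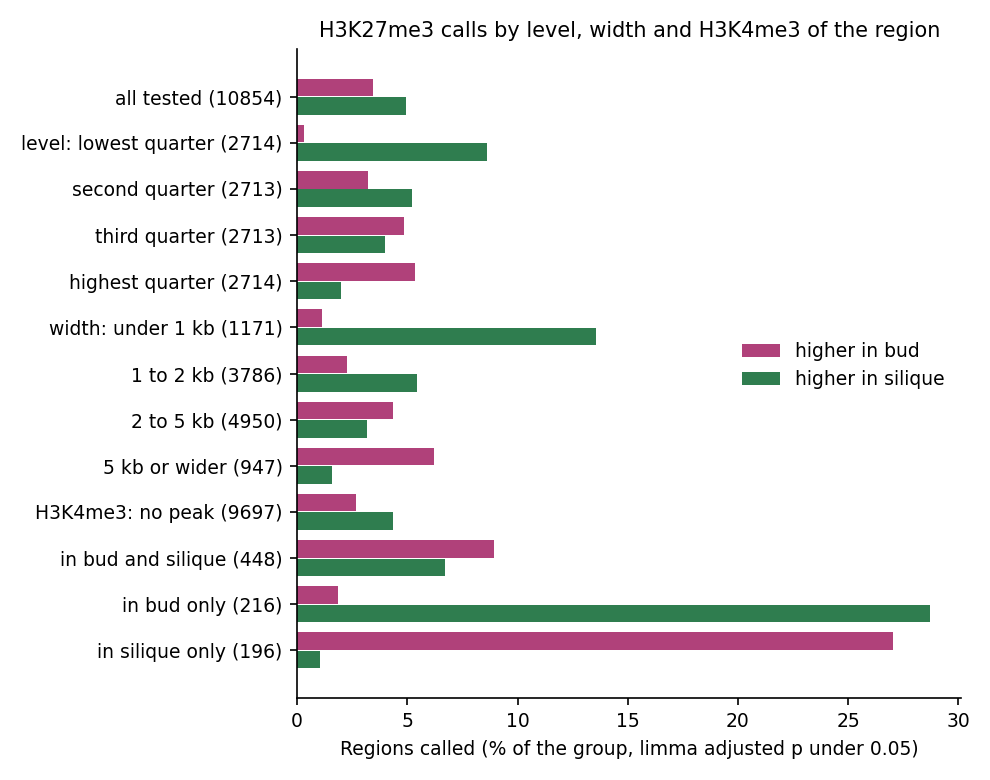
Share of tested H3K27me3 regions called higher in bud or higher in silique (percent of the group, number tested in brackets) by quartile of mean level, by width and by H3K4me3 peaks at the region. The longest bars are at regions with H3K4me3 in bud only (28.7% higher in silique) and in silique only (27.04% higher in bud).

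H3K4me3 was measured in separate libraries of both tissues and looked up at these regions. Of the 373 regions higher in bud 258 (69.2%) had no H3K4me3 peak in either tissue, and of the 538 higher in silique 420 (78.1%) had none. The H3K4me3 fit, made in the same way, called 7191 of 39031 regions higher in bud (18.4%) and 7215 higher in silique (18.5%). Without silique H3K4me3 library 1 or 2 it called none in either direction (limma, adjusted p), with 12647 and 12188 at an unadjusted p under 0.05, and the cause was not tested. Without bud H3K4me3 library 1 it called 5405 and 5475, and without library 2 it called 5457 and 5611. Most H3K27me3 regions, 9697 of the 10854, had no H3K4me3 peak in any library of either tissue. There 258 (2.66%) were higher in bud and 420 (4.33%) in silique, close to the shares over all regions.

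Where both bud H3K4me3 libraries and neither of silique had a peak, in 216 regions, H3K27me3 was higher in bud in 4 (1.85%) and higher in silique in 62 (28.7%), with a median difference of -0.35. Where only both silique libraries had an H3K4me3 peak, in 1.81% of the tested regions, H3K27me3 was higher in bud in 53 (27.04%) and higher in silique in 2 (1.02%), with a median of 0.29. In the 448 regions with H3K4me3 in both tissues, 40 (8.93%) were higher in bud and 30 (6.70%) in silique, with a median of 0.00. A further 297 had H3K4me3 in other combinations of libraries, and 18 (6.06%) of these were higher in bud and 24 (8.08%) in silique. Presence of H3K4me3 in 1 tissue went with lower H3K27me3 in that tissue, in both directions. At the bud-only H3K4me3 regions the calls for silique numbered 40 without bud H3K27me3 library 1, 36 without bud library 2, 99 without silique library 1 and 98 without silique library 2. At the silique-only H3K4me3 regions the calls for bud numbered 19, 18, 84 and 136 in the same order. All 4 fits gave medians of the same sign as with all libraries.

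H3K4me3 levels could be compared at a minority of the called regions. Over all tested H3K27me3 regions with H3K4me3 in all 4 H3K4me3 libraries, 448 in number, H3K4me3 was higher in bud at 29.5% and in silique at 24.3%. Of the 373 regions higher in bud, 40 had H3K4me3 in all 4 H3K4me3 libraries. H3K4me3 was higher in bud at 3 of them and higher in silique at 20, with a median difference of -0.50. Of the 538 higher in silique, 30 had such H3K4me3, higher in bud at 22 and in silique at 1, with a median of 0.67. Over all merged regions with such H3K4me3, 1212 in number, H3K4me3 was higher in bud at 25.3% and in silique at 31.6%. Among the regions in bud and not in silique, 256 had it, higher in bud at 32 (12.5%) and in silique at 127 (49.6%), with a median of -0.39. Among those in silique and not in bud, 16 had it, higher in bud at 12 and in silique at 0, with a median of 0.98. Lists of both marks were called against the same control, and its part in these counts was not tested.

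The seedling libraries of the series, from plants 2 weeks old, had H3K27me3 at most of the shared regions. Both seedling libraries held 9631 of the 10854 (88.7%), 358 of the 373 higher in bud (96.0%) and 399 of the 538 higher in silique (74.2%). Among the regions in bud and not in silique they held 508 (14.0%), and among those in silique and not in bud 16 (20.5%), against 49.6% of all merged regions. With every library scaled to its median over the regions shared by all 6, the regions higher in bud had a median of 1.51 in bud, 0.92 in silique and 1.25 in seedling. Those higher in silique had 0.61 in bud, 1.07 in silique and 0.86 in seedling. Sets chosen for a difference between bud and silique place a tissue not used in the choice near the mean of the regions, so nothing is read from the seedling medians lying in between. Seedling libraries were shallow as well, with 3647059 and 3479885 fragments.

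The 5 largest differences in favour of bud lay at regions that carried H3K4me3 in both silique libraries. Over all 373 regions higher in bud, 99 (26.5%) had it in both silique libraries, against 6.39% of all tested regions. Both bud libraries had it at 44 (11.8%) of the 373, against 6.59%. On sequence 1 from 8360409 to 8364291 pileup was 176 and 223 in bud, against 44 and 10 in silique. Scaled values were 1.96 and 2.19 in bud, against 0.746 and 0.5 in silique, with a log2 difference of 1.76 (SE 0.182, limma adjusted p = 3.14e-05). Peaks covered 3357 and 3883 bp of the region in bud and 2085 and 336 bp in silique, and H3K4me3 was 44 and 53 in bud and 158 and 83 in silique (log2 difference -1.05, limma adjusted p = 6.87e-06). The groups did not overlap in H3K27me3, by the choice of the region. They did not overlap in H3K4me3 either, and the marks lay in opposite order.

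On sequence 17 from 43702991 to 43710117, over 7127 bp, pileup was 250 and 323 in bud, against 63 and 16 in silique (log2 difference 1.68, SE 0.159, limma adjusted p = 1.31e-05). H3K4me3 had no bud peak there and a peak in both silique libraries. The region of sequence 10 from 22066451 to 22072240 had scaled values of 1.98 and 1.95 in bud, against 0.610 and 0.7 in silique (1.59, SE 0.153). Its H3K4me3 was present in both organs and lower in bud (log2 difference -0.59, limma adjusted p = 5.39e-06). On sequence 16 from 49390663 to 49394435 pileup was 261 and 327 in bud, against 70 and 22 in silique (1.42). On sequence 14 from 3372965 to 3380264 scaled values were 1.93 and 1.89 in bud, against 0.746 and 0.7 in silique (1.404). At both of these, H3K4me3 had no bud peak and was listed in silique, at 148 and 87 on sequence 16 and at 70 and 44 on sequence 14. Seedling libraries had H3K27me3 at all 5 regions, with scaled values from 1.00 to 3.00.

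**Figure D5:**
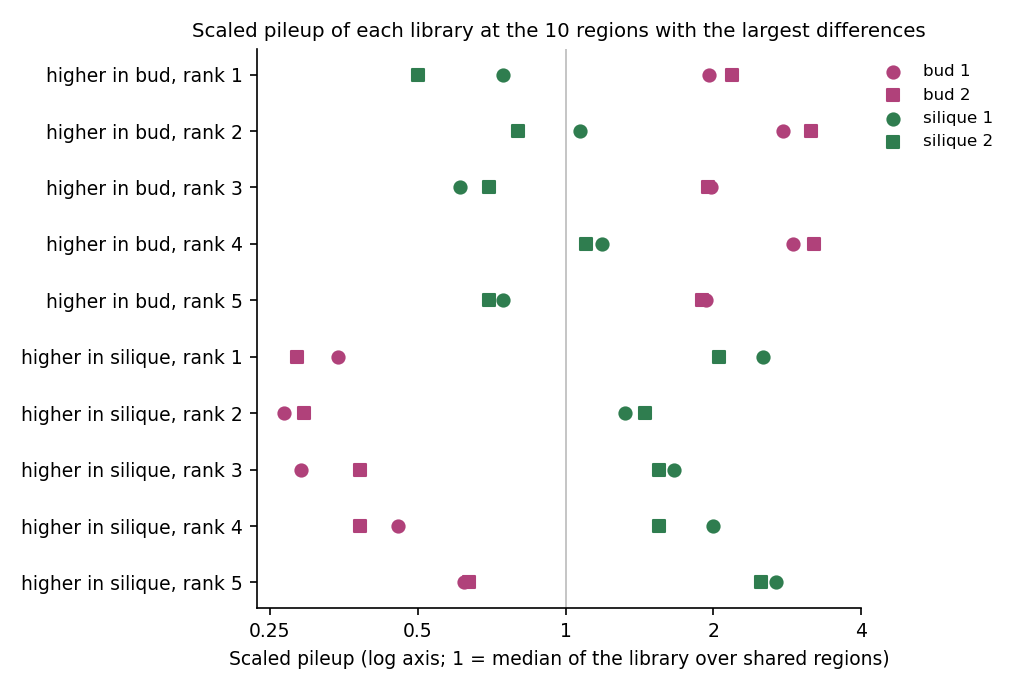
Scaled pileup (log axis, 1 is the median of the library over shared regions) of each library at the 5 regions with the largest difference in favour of bud and the 5 in favour of silique. Bud points lie right of both silique points in the upper 5 rows and left of them in the lower 5. The regions were picked with groups apart, so the lack of overlap follows from the choice.

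In favour of silique the largest difference was on sequence 7 from 27874777 to 27877374, where pileup was 31 and 29 in bud, against 149 and 41 in silique. Scaled values were 0.344 and 0.284 in bud, against 2.53 and 2.05 in silique, a log2 difference of -2.86 (SE 0.180, limma adjusted p = 3.01e-07). Peaks covered 573 and 999 bp in bud, against 2598 and 1487 bp in silique. H3K4me3 was 231 and 256 in bud, against 43 and 32 in silique (log2 difference 2.91, limma adjusted p = 1.00e-18). The second, on sequence 14 from 2941791 to 2943734, had 24 and 30 in bud, against 78 and 29 in silique (-2.31, SE 0.205, limma adjusted p = 8.44e-06). Raw pileups of bud library 2 and silique library 2 were nearly equal there. Scaled by fragments instead of the median the difference was -2.16, and in fold enrichment it was -2.12.

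On sequence 9 from 27491904 to 27494275 pileup was 26 and 39 in bud, against 98 and 31 in silique (-2.27), and H3K4me3 was 139 and 155 in bud, against 120 and 69 in silique. On sequence 19 from 2563594 to 2564507 it was 41 and 39 in bud, against 118 and 31 in silique (-2.08), with no H3K4me3 peak in either tissue. The region on sequence 13 from 38925716 to 38928117 had 56 and 65 in bud, against 158 and 50 in silique (-2.04, SE 0.145, limma adjusted p = 9.60e-07). Its scaled values were 0.622 and 0.637 in bud and 2.68 and 2.5 in silique, and H3K4me3 was listed in bud, at 229 and 253, with no silique peak. Seedling libraries had no H3K27me3 peak at the regions of sequences 9 and 19 and a peak in 1 library at that of sequence 13. Differences at all 10 named regions kept their direction and stayed called in every fit that tested them. The 10 were picked with groups apart, which leaves a direction little room to change when 1 library is left out.

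Peaks were narrowest in the shallow silique library, and widths gave no difference past the threshold. Peaks covered a median of 1843 and 2064 bp of the shared regions in bud and 1665 and 850 bp in silique. As a share of the region's length this was 88.0 and 96.7% in bud and 79.8 and 45.6% in silique. Divided by the median of its own library, the covered length gave 0 regions called in either direction (limma, lowest adjusted p = 0.136), with 1044 (9.62%) at an unadjusted p under 0.05, of which 599 were wider in bud and 445 in silique. Array weights, which lower the part of a library that stands apart, gave 62 wider in bud and 19 in silique, and the widest peak of a region in place of the covered length gave 42 and 27. The covered length gave 3 and 2 without bud library 1, 1 and 1 without bud library 2, 2535 and 4251 without silique library 1, and 1609 and 804 of 18886 without silique library 2.

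Set against silique library 1 alone, without scaling, peaks were wider in bud by a median of 0.10 log2 units for bud library 1 (68.9% of regions wider) and by 0.22 for bud library 2 (85.7%). The bud libraries themselves differed by -0.11 (library 1 minus library 2), and the silique libraries by 0.79 (library 1 minus library 2). The gap between the silique libraries exceeded both gaps between bud and silique library 1. Among the 373 regions higher in bud, 253 (67.8%) were relatively wider in bud, with a median scaled width difference of 0.24. Of the 538 higher in silique, 42 (7.81%) were relatively wider in bud, with a median of -0.56, and over all tested regions 4283 (39.5%) were. Pileup and covered length come from the same peaks, so these shares describe the calls.

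Domains of 5 kb or wider were shared. Of 959 such regions 947 (98.7%) were found in all 4 libraries, 10 in both bud libraries and 1 silique library, and 2 in bud and not in silique. The 947 were broken into several peaks in 38.5 and 5.81% of cases in bud and in 55.5 and 73.6% in silique, and a single peak of 5 kb or more was listed in 590 and 862 of them in bud and in 362 and 37 in silique. The widest spanned 22703 bp on sequence 3 from 18753937 to 18776639, with a scaled pileup of 2.6 and 2.97 in bud and 2.41 and 2.45 in silique. Bud libraries covered it with 3 and 1 peaks and silique libraries with 2 and 8. The next, 18883 bp on sequence 14 from 1844919 to 1863801, had 5.1 and 5.17 in bud and 4.44 and 3.7 in silique. The others lay on sequence 12 from 12761885 to 12776788, on sequence 3 from 3440620 to 3454023 and on sequence 11 from 44439861 to 44452783. Differences at these 5 ran from 0.13 to 0.44 and none passed the threshold (limma adjusted p from 0.0878 to 0.579). Without silique library 1 the regions of sequences 14 and 12 and that of sequence 3 from 3440620 passed, at 0.47, 0.65 and 0.42.

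Summits of the strongest peak lay close together in all libraries. The median distance was 56 bp between the bud libraries, 95 bp between the silique libraries, and 63 and 65 bp from the bud libraries to silique library 1. To silique library 2 it was 94 and 93 bp from bud, about as far as from its own sister. The spread within silique rests on that shallow library, so a shift between tissues smaller than this spread could not be seen against it.

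Called regions were spread over the genome. On sequences 1 to 10, 3.28% of 5303 tested regions were higher in bud and 4.85% in silique, and on sequences 11 to 19, 3.59% and 5.07% of 5545. Shares per sequence ran from 2.26% (sequence 8) to 5.13% (sequence 12) for bud and from 2.27% (sequence 4) to 7.47% (sequence 16) for silique. Of 824 windows of 1 Mb with a tested region, 279 (33.9%) held a region higher in bud and 339 (41.1%) one higher in silique. Regions within 10 kb of each other shared calls more often than they opposed them. Of called members of such pairs, 10.7% of those higher in bud had a neighbour with the same call and 2.38% one with the opposite call. For silique these were 17.3% and 1.57%. Among all tested regions 3.44% were higher in bud and 4.96% in silique.

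Among the 3 windows with most bud calls, that on sequence 3 held its calls closest together, where 4 regions higher in bud lay within 20.75 kb, from 22241410 to 22262159. The first, from 22241410 to 22243065, had pileups of 234 and 312 in bud, against 97 and 30 in silique (log2 difference 0.84, limma adjusted p = 0.00186). The second, from 22251075 to 22252982, had 125 and 154 in bud, against 62 and 20 in silique (0.50, adjusted p = 0.0472), the weakest call of the 4. Next came the region from 22256347 to 22257188, with 151 and 230 in bud, against 68 and 16 in silique (1.02). The last, from 22261075 to 22262159, had scaled values of 1.68 and 1.88 in bud, against 0.983 and 0.9 in silique (0.92). None of the 4 had H3K4me3 in both libraries of either tissue, and both seedling libraries had H3K27me3 at each. The window with the most bud calls, on sequence 2 from 4000000 to 4999999, held 5 of 36 tested (13.9%), beside 3 higher in silique. Its neighbour from 3000000 to 3999999 held 4 of 57 (7.02%), beside 3 higher in silique. The shares over all tested regions were 3.44% for bud and 4.96% for silique. Windows picked for their counts lie above such shares by the choice itself. The neighbour's region from 3877741 to 3884522, had 488 and 652 in bud, against 255 and 73 in silique (0.57), the highest pileups among the regions called higher in bud in every library.

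The windows with most silique calls were on sequences 10 and 2. On sequence 10 from 20000000 to 20999999, 2 of 40 tested regions were higher in bud and 7 (17.5%) in silique, and from 19000000 to 19999999, 1 and 5 (16.1%) of 31. The strongest of them, on sequence 10 from 19612980 to 19616582, had pileups of 141 and 173 in bud, against 193 and 61 in silique (log2 difference -0.95, limma adjusted p = 0.000475). A second, from 20224474 to 20225445, had 97 and 122 in bud, against 133 and 49 in silique (-1.05, adjusted p = 0.000366). Another, from 20178437 to 20179695, had 38 and 33 in bud, against 57 and 23 in silique (-1.51). On sequence 2 from 1000000 to 1999999, 1 of 37 was higher in bud and 5 (13.5%) in silique, with a median difference of -0.30 over all tested regions of that window. The silique share over all tested regions was 4.96%, and these windows were picked for their counts. None of the silique calls in these windows had H3K4me3 in both libraries of either tissue.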

How the data were processed

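ChIP-seq peak lists of H3K27me3 in flower bud and silique were analysed, 2 libraries each, with H3K4me3 lists of the same tissues and H3K27me3 lists of seedlings looked up at their regions. The seedling H3K4me3 lists were not used. BWA, SAMtools, GATK and MACS2 were used per the submitters' processing notes. Per library, MACS 2.2.7.1 called narrow peaks from read pairs with a q cutoff of 1e-5, 1 fragment kept per duplicate position and an effective genome size of 921913538, against 1 merged control, per the file headers. The genome build is not given in the sources used here. Pileup is a signal, the deposited whole-number fragment coverage at the summit. The fold enrichment is the authors' deposited ratio of pileup to local control, used as an alternative. The authors deposited p-value and q-value as −log10, and the q-value served to filter and rank peaks.

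Presence in a tissue asked for a peak in both libraries, and absence for a peak in neither. No peak means that none was called at that depth. Levels were log2 of the highest summit pileup divided by the library's median over regions of all 4 libraries, with no pseudocount. Widths were log2 covered bp, centred by library. Both were fitted with limma 3.58.1 (eBayes with trend, no covariates) in R 4.3.3, with Benjamini-Hochberg adjustment over all tested regions and a threshold of 0.05. H3K4me3 presence at a region means an overlapping peak. Scripts were tested on simulated data. Other steps used Python 3.11.15, numpy 2.4.6, pandas 2.3.3, scipy 1.17.1 and matplotlib 3.10.9.

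The regions, lists and tests were chosen with earlier results of these data known, among them regions where the 2 marks change in opposite directions. Named regions were the 5 called differences each way that were largest with groups apart, the 5 strongest each way found in 1 tissue, the 5 widest found in all 4 libraries and the 3 windows of 1 Mb each way with most calls. Those called for width would have been named, and there were none. Alternatives were other scalings, values, filters, merging rules and leaving out each library.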

Additional observations from a re-analysis of the deposited data

How the results depend on the processing

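In bud and not in silique were 3623 regions, 1227 with lists cut to equal length, 27 above the detection limit and 3650 to 11655 with 1 library left out. In silique and not in bud were 78, 45 with −log10 q of 10 or more, 440 with lists cut to equal length and 91 to 1429 with 1 library left out. Coverage of 50% of a region, or merging within 500 bp, kept both counts within 1.5 times. Pileup calls were 373 in bud and 538 in silique, 242 and 213 scaled by fragments, 190 in bud without the trend (567 in silique, so that bud took 25.1% of calls, against 40.9%), and 116 and 167 after quantile normalization. Rescaled and refitted on regions above the median level alone, 284 were called in bud and 223 in silique (56.0% in bud). In the setting added after seeing the data, well above the lowest level of silique library 2 by the mean of the other 3 libraries, pileup calls were 349 and 180 (65.97% in bud). That mean holds 2 bud values and 1 silique value, so the filter itself favours bud calls. With 1 library left out they ran from 62 to 1473 in bud and from 162 to 1892 in silique. Width calls were 0 and 0, 3 in bud above the median level, 62 and 19 with array weights, 42 and 27 for the widest peak, and 1 to 2535 in bud and 1 to 4251 in silique with 1 library left out. Unscaled covered length gave 0 calls by limma, with 1209 wider in bud and 9 in silique at an unadjusted p under 0.05. H3K4me3 calls in silique were 3364 scaled by fragments (10624 in bud, 76.0% of calls, against 49.9%), and with 1 library left out calls ran from 0 to 5457 in bud and from 0 to 5611 in silique. The cause of these shifts was not tested. Fold enrichment in place of pileup turned 1 named difference, that of the widest region of sequence 11, to -0.013. Named differences in favour of bud (73 fits) and silique (69 fits), picked with groups apart, kept direction and call. No paired analysis was possible because the labels give no replicate numbers that the tissues share. With 2 libraries per tissue, small differences and weak regions are beyond what these lists can show, since silique library 2 lists no level below 0.45.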
